A study of Mus musculus with 12 samples.

Results

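Expression of 10 cytokine and macrophage genes was followed in whole mouse kidney: the interleukin Il1b and its antagonist Il1rn, the cytokines Tnf, Il6 and Il10, the receptor Osmr, the macrophage growth factors Csf1 and Il34, and the arginine enzymes Nos2 and Arg1. They were chosen by gene name, and all 10 were found among the 22053 rows of the deposited expression table. RNA was sequenced from 12 wild-type C57BL/6 mice at 16 weeks of age, 4 in each of 3 groups, and each mouse gave 1 library. The control mice (CTR) ate a diet without adenine. The CKD mice ate the same diet with 0.2% adenine from 8 weeks of age, which damages the tubules and leads to chronic kidney disease (CKD). The CKD+Fe mice ate adenine too and were injected i.p. once a week with iron dextran (0.5 g/kg). Per the study's methods the other groups were injected with PBS, whereas the labels list no treatment for the control mice, and the sex of the mice is not given in the sources used here. Mice are numbered within each group in the order of deposit, and the numbers pair no mice across groups.

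Interleukin-1 beta and tumor necrosis factor are released mainly by activated myeloid cells and switch on NF-kappaB in their target cells, and the product of Il1rn occupies the interleukin-1 receptor without signaling. Interleukin-6 and oncostatin M signal through the shared subunit gp130, encoded by Il6st, and oncostatin M needs the subunit encoded by Osmr. Colony-stimulating factor 1 and interleukin-34 are alternative ligands of the receptor Csf1r, on which most tissue macrophages depend, and injured tubule cells are a known source of both. Inducible nitric oxide synthase (Nos2) and arginase 1 (Arg1) compete for arginine and are often used to contrast inflammatory with repair-type macrophages. Interleukin-10 restrains macrophage activation.

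Values are FPKM, which are fragment numbers scaled to transcript length and to the reads of the library, so levels can be compared between genes. A whole kidney holds many cell types, and more cells of a type cannot be told apart from more RNA per cell. Depth, estimated from the steps between low FPKM values, was 20600000 to 29400000 reads per mouse. The samples carried kidney markers, with 6 proximal tubule markers summing to 1710 to 2854 FPKM in CTR, 294 to 570 in CKD and 379 to 886 in CKD+Fe. Most genes were higher in CKD than in CTR as deposited, with a median difference of 0.50 (log2) over all 13148 genes tested, and 7181 were called higher and 1748 lower. After median-of-ratios rescaling, which removes a shift shared by most genes, these became 3781 and 3856. CTR mouse 3, CKD mouse 3 and CKD+Fe mouse 1 stood apart, with 596, 806 and 442 genes at least 2-fold from the rest of their group, against 42 to 225 in the other mice. Leaving out these 3 mice together changed none of the counts of called members below.

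The promoters of the genes whose levels are described below are shown because the inducible cytokines share NF-kappaB and AP-1 control as textbook background. RefSeq promoter windows (GRCm38.p6, from 250 bases before to 50 after the start site) were matched for 6 of the 10 genes, in 8 windows. Entries for Il10, Il34, Nos2 and Arg1 were not matched. Bases just before the start site are printed from 5′ to 3′ on the gene's strand. Capitals mark a kappaB motif and an AP-1 motif (TGANTCA) in Il6, chr5:30012864-30013113 (plus strand), a kappaB motif in Csf1, chr3:107760470-107760639 (minus strand), a TATA box (TATAAA) in Il1b, chr2:129371140-129371199 (minus strand), and in Tnf, chr17:35202008-35202067 (minus strand), and an AP-1 motif before the most upstream of 3 start sites of Il1rn, chr2:24336700-24336859 (plus strand):
Il6: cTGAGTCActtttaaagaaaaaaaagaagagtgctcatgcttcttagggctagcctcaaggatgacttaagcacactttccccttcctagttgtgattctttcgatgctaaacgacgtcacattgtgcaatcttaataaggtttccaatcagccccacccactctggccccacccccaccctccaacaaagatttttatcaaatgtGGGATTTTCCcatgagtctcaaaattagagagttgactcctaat
Csf1: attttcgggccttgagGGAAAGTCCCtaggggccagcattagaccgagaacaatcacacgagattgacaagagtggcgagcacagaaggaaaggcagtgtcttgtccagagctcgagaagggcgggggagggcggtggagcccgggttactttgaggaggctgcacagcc
Il1b: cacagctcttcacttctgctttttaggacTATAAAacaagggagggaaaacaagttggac
Tnf: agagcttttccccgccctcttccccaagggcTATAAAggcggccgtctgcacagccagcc
Il1rn: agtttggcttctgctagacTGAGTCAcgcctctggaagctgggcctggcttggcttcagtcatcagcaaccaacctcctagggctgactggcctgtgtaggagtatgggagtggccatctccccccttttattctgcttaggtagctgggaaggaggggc

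On either strand, the kappaB motif was found in 4.51% of the 32851 promoter windows and in 2 of the 8 windows of these genes, those of Il6 and Csf1. The Il6 motif starts 44 bases before the start site, and that of Csf1, which reads on the opposite strand, starts 154 bases before it. AP-1 was found in 7.81% of all windows and in those of Il6, Il1rn and Osmr, and TATAAA in 13.6% and in those of Il1b, Tnf and Il1rn. The TATAAA of Il1rn reads on the opposite strand, and both it and the AP-1 motif of Osmr lie after the start site. The STAT motif TTCNNNGAA, in 8.30% of all windows, was in none of the 8. These matches describe the letters only.

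The first question was how these genes differ between healthy and diseased kidneys. All 10 had higher values in every CKD mouse than in every CTR mouse, an order that 31.7% of all genes also showed. Of the 10 genes, 7 passed the filter for testing (at least 1 FPKM in at least 4 mice), and all of those 7 were called higher in CKD by limma with Benjamini-Hochberg adjustment, against 54.6% of the genes tested overall (28.8% after rescaling). Tnf, Il1rn and Arg1 passed that filter only through the CKD and CKD+Fe mice and so had to differ, whereas Il1b, Osmr, Csf1 and Il34 were at or above 1 FPKM in every mouse. Among genes named below, Il1f6, Il1r2, Il18r1, Il20rb, Csf3r and Slc7a2 were also under 1 FPKM in every CTR mouse. Their calls, and the list counts that include them, were partly fixed by the filter. Fold changes are given on the log2(FPKM + 1) scale, which understates the change of genes with low values.

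**Figure D1:**
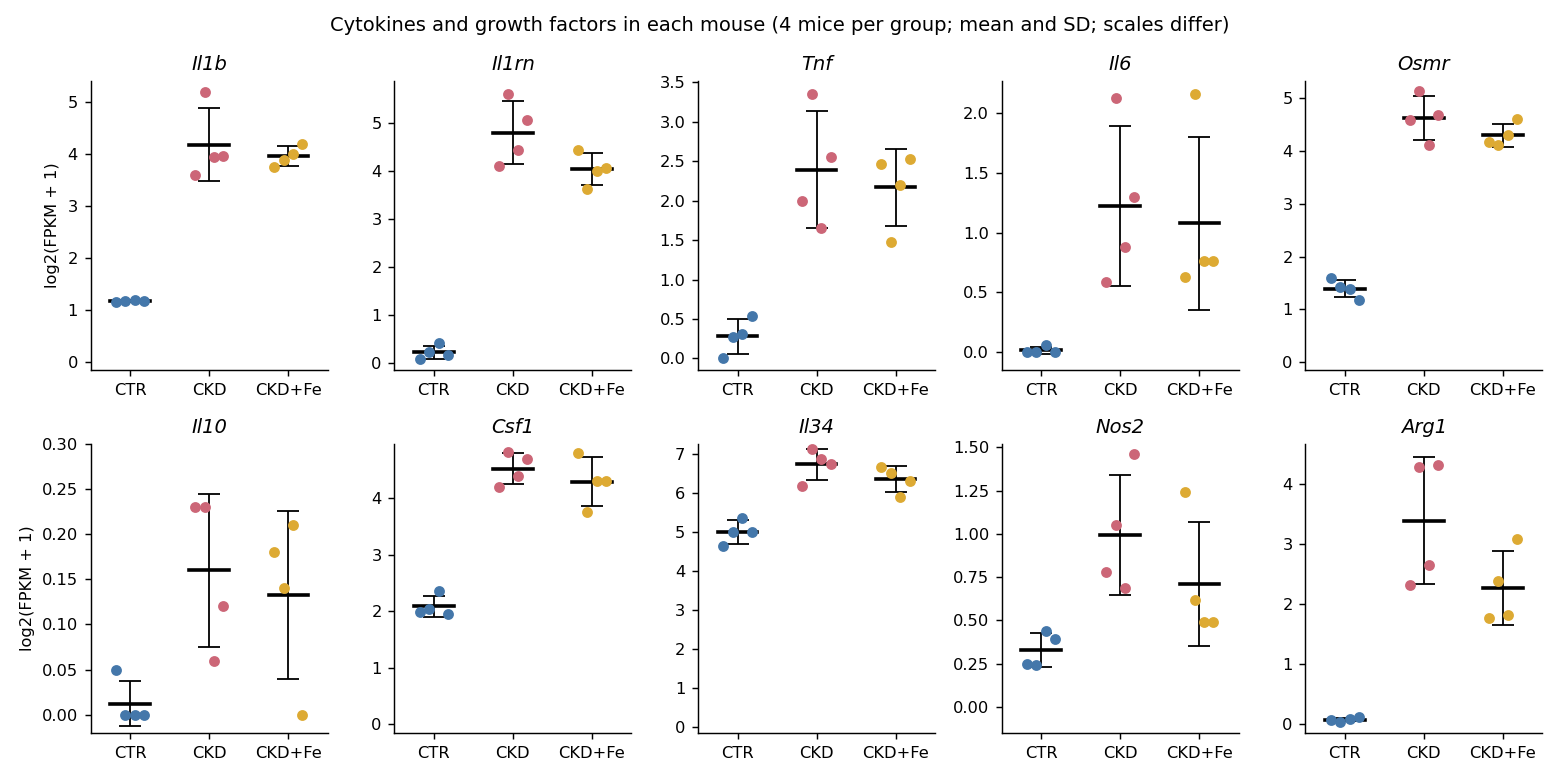
Level of each of the 10 genes as log2(FPKM + 1) on the vertical axis, with a point per mouse, a bar at the mean and the SD as whiskers (4 mice in each of CTR, CKD and CKD+Fe; the vertical scales differ). Every CKD mouse lies above every CTR mouse for all 10 genes, and the CKD and CKD+Fe points overlap for every gene.

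Il1b, the inflammatory interleukin of chromosome 2 (129364570 to 129371139, minus strand), was close to uniform in CTR and many times higher in CKD. It was 1.23, 1.27, 1.30 and 1.25 FPKM in the 4 CTR mice and 11.0, 35.8, 14.5 and 14.6 in the 4 CKD mice. CKD mouse 2 stood far above the other CKD mice, and even the lowest CKD mouse was above every CTR mouse. Il1b rose by a log2 fold change of 3.00 (SE 0.26, limma adjusted p = 9.49e-07) and 2.59 after rescaling.

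Its antagonist Il1rn (chromosome 2, 24336853 to 24351494, plus strand) showed the largest log2 fold change of the 7 tested genes. It measured 0.0625, 0.167, 0.327 and 0.123 FPKM in CTR, about 4 to 19 reads per mouse, and 16.0, 47.3, 20.7 and 32.2 in CKD. The log2 fold change was 4.57 (SE 0.27, adjusted p = 4.63e-08), and 16 of the 13148 genes had a larger one. CKD mouse 2 was again the highest. The antagonist was therefore below its agonist in every CTR mouse and above it in every CKD mouse. The FPKM ratio of Il1rn to Il1b within a mouse was 0.0509, 0.132, 0.252 and 0.0980 in CTR and 1.45, 1.32, 1.43 and 2.20 in CKD.

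Among 23 other genes of the interleukin-1 family and its signaling, 20 were tested, of which 18 rose, 1 fell (Sigirr, an inhibitory receptor of the family) and 1 was not called. Their median log2 fold change was 1.39, beside 0.50 for all genes, and 15 rose and 1 fell after rescaling. The signaling receptor Il1r1 averaged 1.56 ± 0.301 FPKM in CTR and 8.56 ± 2.43 in CKD (SD, n = 4), a log2 fold change of 1.87 (adjusted p = 3.37e-06). Il1r2, a decoy receptor, averaged 0.209 ± 0.188 and 5.28 ± 2.45. The shared subunit Il1rap rose by 0.94 (adjusted p = 0.00184), which became 0.53 after rescaling (adjusted p = 0.0436). The changes of greatest size in the list were those of Il1f6, which encodes interleukin-36 alpha, at 4.31 (adjusted p = 3.53e-08), Il33, an alarmin of tissue cells, at 3.02 (adjusted p = 2.94e-08), and Il18r1, a receptor of interleukin-18, which averaged 0.305 ± 0.303 FPKM in CTR and 6.44 ± 1.96 in CKD (adjusted p = 1.55e-06).

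Tnf (chromosome 17, 35199381 to 35202007, minus strand) stayed a low transcript even in disease. Its values were 0, 0.205, 0.243 and 0.449 FPKM in CTR and 2.99, 9.19, 2.15 and 4.88 in CKD. The groups did not overlap, and CKD mouse 2 was the highest. Tnf rose by a log2 fold change of 2.11 (SE 0.32, adjusted p = 7.60e-05) and 1.88 after rescaling.

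Of 24 other TNF and NF-kappaB pathway genes, 23 were tested, of which 20 rose, 0 fell and 3 were not called, with a median log2 fold change of 1.31. After rescaling 14 rose and 1 fell. Of the 2 receptors, Tnfrsf1b, the receptor typical of immune cells, averaged 1.68 ± 0.228 FPKM in CTR and 22.5 ± 4.83 in CKD, while the broadly expressed Tnfrsf1a averaged 36.3 ± 2.25 and 80.0 ± 23.4. Their log2 fold changes were 3.11 (adjusted p = 3.28e-07) and 1.08 (adjusted p = 0.00066), which became 2.67 and 0.52 after rescaling, where Tnfrsf1a lost its call (adjusted p = 0.0604). The difference between the receptors was not tested. Birc3, an inhibitor of apoptosis, and Tnfaip3, which encodes the NF-kappaB inhibitor A20, rose by 2.98 (adjusted p = 2.55e-07) and 2.56 (adjusted p = 2.24e-06).

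Il6 (chromosome 5, 30013114 to 30019981, plus strand) was at 0 FPKM in 3 CTR mice and at 0.0456, about 2 reads, in CTR mouse 3. In CKD it was 0.507, 3.38, 0.844 and 1.47 FPKM. Every CKD mouse was above every CTR mouse, with CKD mouse 2 the highest (exact two-sided permutation test, p = 0.0286, the smallest that 4 mice against 4 allow). Il6 was under the filter. In the fit without a filter, in which 35.7% of 22053 genes were called higher in CKD, its log2 fold change was 1.21 (SE 0.39, adjusted p = 0.0274).

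Osmr, the oncostatin M receptor subunit (chromosome 15, 6813577 to 6874969, minus strand), was by contrast above 1 FPKM in every mouse. It measured 2.01, 1.70, 1.62 and 1.27 FPKM in CTR and 23.0, 34.0, 16.4 and 24.7 in CKD. The groups were far apart compared with their spread, and Osmr rose by 3.23 (SE 0.19, adjusted p = 4.67e-08) and 2.79 after rescaling. Its ligand Osm was at 0.0158 to 0.118 FPKM in CTR and 0.498 to 1.62 in CKD and was under the filter. The partner subunit Il6st averaged 17.3 ± 4.23 and 44.9 ± 8.20, a log2 fold change of 1.33 (adjusted p = 2.79e-05) that became 0.78 after rescaling. The FPKM ratio of Osmr to Il6st within a mouse ran from 0.0558 to 0.131 in CTR and from 0.452 to 0.760 in CKD. The interleukin-6 receptor Il6ra averaged 0.828 ± 0.357 in CTR and 4.36 ± 0.618 in CKD, a log2 fold change of 1.57 (adjusted p = 2.73e-05).

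Among 22 other genes of the interleukin-6 family, 19 were tested, of which 14 rose, 1 fell (Il11ra1, the interleukin-11 receptor) and 4 were not called, and the median log2 fold change was 1.06. After rescaling 12 rose and 2 fell. Socs3, the feedback inhibitor of gp130 signaling, rose by 3.78 (adjusted p = 4.45e-08), and Clcf1, a ligand of the family, rose by 3.36 (adjusted p = 5.34e-08).

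Il10 (chromosome 1, 131019845 to 131024974, plus strand) was the lowest of the 10 genes in every group. Its values were 0.0339, 0, 0 and 0 FPKM in CTR, 0.170, 0.172, 0.0402 and 0.0870 in CKD and 0.130, 0.0988, 0.154 and 0 in CKD+Fe. These correspond to about 0 to 1 read in a CTR mouse, 1 to 4 in a CKD mouse and 0 to 5 in a CKD+Fe mouse, so a change in Il10 could not be sized at this depth. In the fit without a filter the log2 fold change in CKD was 0.15 (SE 0.05, adjusted p = 0.0357) and lost its call after rescaling (0.12, adjusted p = 0.0522). Its receptor subunits were measurable. Il10ra, the ligand-binding chain, averaged 1.72 ± 0.357 FPKM in CTR and 11.2 ± 3.72 in CKD, a log2 fold change of 2.12 (adjusted p = 1.19e-06). Il10rb, a chain shared with other cytokines, averaged 28.0 ± 4.35 and 46.2 ± 4.69, and its log2 fold change of 0.71 (adjusted p = 0.00331) became 0.15 after rescaling and lost its call (adjusted p = 0.447). Of 9 other family genes, these and Il20rb (1.36, adjusted p = 3.55e-05) were the only ones tested, and all 3 rose. After rescaling 2 of the 3 rose.

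The 2 ligands of Csf1r stood at different levels in the healthy kidney. Il34 (chromosome 8, 110741829 to 110805924, minus strand) was the most abundant of the 10 genes in every mouse, at 23.8, 30.8, 40.0 and 31.0 FPKM in CTR and 71.2, 139, 115 and 107 in CKD. Csf1 (chromosome 3, 107741048 to 107760469, minus strand) measured 2.97, 3.14, 4.15 and 2.85 in CTR and 17.4, 27.3, 20.1 and 24.7 in CKD. Neither gene's groups overlapped. As a log2 fold change this was 2.44 (SE 0.21, adjusted p = 6.83e-07) for Csf1 and 1.73 (SE 0.22, adjusted p = 1.72e-05) for Il34, and after rescaling 1.95 and 1.17. Within a mouse the FPKM ratio of Il34 to Csf1 was 8.01, 9.81, 9.64 and 10.9 in CTR and 4.10, 5.08, 5.74 and 4.32 in CKD, so Il34 exceeded Csf1 in all of these mice but by less in CKD. The receptor Csf1r averaged 18.4 ± 1.67 in CTR and 62.7 ± 16.1 in CKD, a log2 fold change of 1.68 (adjusted p = 4.77e-06) that became 1.12 after rescaling. A wider list of 14 other genes holds Csf1r and also further growth factors and receptors, such as Csf2, Csf3, Flt3 and Kit. Of these, 12 were tested and all 12 rose (median 1.94), against 54.6% of all genes tested. After rescaling 10 of the 12 rose, against 28.8% of all genes tested. The largest changes were in Tyrobp, a signaling adaptor of myeloid cells, at 3.41 (adjusted p = 7.01e-07), Sdc1, a proteoglycan that binds interleukin-34, at 3.02 (adjusted p = 6.13e-08), and the granulocyte receptor Csf3r at 2.80 (adjusted p = 3.74e-06).

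The arginine enzymes differed in level more than in direction. Arg1 (chromosome 10, 24915208 to 24927470, minus strand) was near the detection limit in CTR, at 0.0450, 0.0252, 0.0535 and 0.0792 FPKM or about 1 to 3 reads. In CKD it was 3.95, 18.4, 5.30 and 19.0, with CKD mice 2 and 4 several times above CKD mice 1 and 3. Arg1 rose by 3.32 (log2, SE 0.42, adjusted p = 1.74e-05), with the widest error of the 7 tested genes. Nos2 (chromosome 11, 78920787 to 78960254, plus strand) was 0.193, 0.184, 0.361 and 0.311 in CTR and 0.720, 1.07, 0.615 and 1.75 in CKD. These groups did not overlap (exact p = 0.0286), but Nos2 was under the filter, and its log2 fold change without it, 0.66 (SE 0.20, adjusted p = 0.0206), became 0.48 (adjusted p = 0.0606) after rescaling. The FPKM of Arg1 was below that of Nos2 in every CTR mouse (ratio 0.137 to 0.255) and above it in every CKD mouse (5.49 to 17.2).

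The 14 other genes of arginine and nitric oxide metabolism were split between directions. Of 13 tested, 6 rose, 5 fell and 2 were not called, and after rescaling 5 rose and 6 fell. Arg2, the arginase isoform of kidney mitochondria, averaged 6.06 ± 2.27 FPKM in CTR and 51.6 ± 3.86 in CKD, a log2 fold change of 2.95 (adjusted p = 2.63e-07). The arginine transporter Slc7a2 rose by 2.96 (adjusted p = 2.48e-07). Ass1, which makes the precursor of arginine and is a proximal tubule enzyme, went from 851 ± 234 to 142 ± 59.9, a log2 fold change of -2.67 (adjusted p = 2.15e-05). The endothelial synthase Nos3 averaged 2.13 ± 0.519 and 2.96 ± 0.885 and was not called (adjusted p = 0.175).

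**Figure D2:**
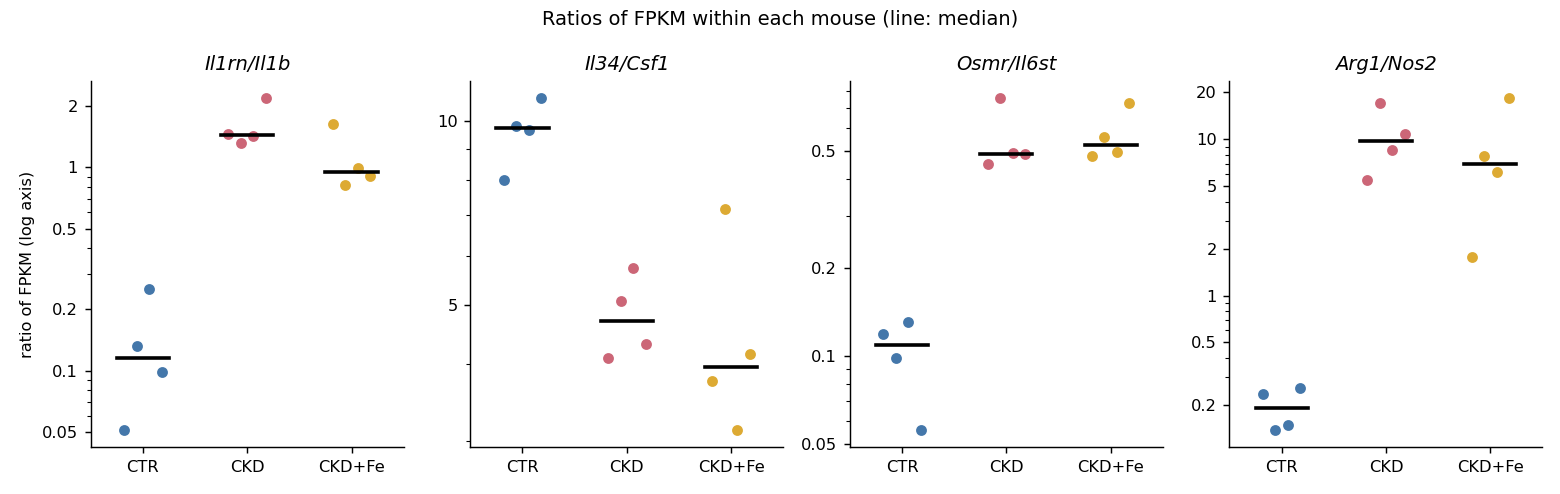
FPKM ratio of 2 genes within each mouse (log axis), with a point per mouse and a line at the median of the 4 mice. The ratios of Il1rn to Il1b, Osmr to Il6st and Arg1 to Nos2 are higher in every CKD and CKD+Fe mouse than in any CTR mouse, and the ratio of Il34 to Csf1 is lower; CKD and CKD+Fe overlap in all 4 ratios. The ratios were chosen after the values were seen and carry no test.

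Levels in CTR fell in the order Il34, Csf1, Osmr and Il1b, with means of 31.4, 3.28, 1.65 and 1.26 FPKM, and then the 6 genes under 1 FPKM. Neighbors in this order did not overlap between mice, except Osmr with Il1b, whose ranges did. The order was different in CKD. Il34 (108 ± 28.0) was still above all others in every mouse, but Il1rn (29.0 ± 13.9), Osmr (24.5 ± 7.26), Csf1 (22.4 ± 4.48) and Il1b (19.0 ± 11.4) had overlapping ranges. Arg1 (11.7 ± 8.15), Tnf (4.80 ± 3.14), Il6 (1.55 ± 1.28) and Nos2 (1.04 ± 0.512) followed with overlapping neighbors, and Il10 (0.117 ± 0.0650) was below all of them. Within the CKD group the genes varied by mouse. CKD mouse 2 had the highest value of the 4 for 8 of the 10 genes, and CKD mouse 1 had the lowest for 6.

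The second question was whether iron changed these genes in diseased kidneys. The mean of log2(FPKM + 1) was lower in CKD+Fe than in CKD for all 10 genes, by amounts from 0.03 to 1.13. None of the 7 tested genes was called by limma, against 0.00761% of all genes. Of the 7, 2 (Il1rn and Arg1, both lower) had an unadjusted limma p under 0.05. Among all 13148 genes tested, 431 were higher and 359 lower in CKD+Fe at that unadjusted cutoff. The 10 values come from the same mice and share the high CKD mouse 2, so they are not 10 separate observations. For none of the 10 was every CKD+Fe mouse below every CKD mouse, as 1.08% of genes were.

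Arg1 had the largest difference. It was 2.41, 4.22, 2.51 and 7.54 FPKM in CKD+Fe, a mean of 4.17 ± 2.39 beside 11.7 ± 8.15 in CKD. Mice 1 and 3 of CKD+Fe were below every CKD mouse, and the other 2 lay within the CKD range. The log2 fold change was -1.13 (95% interval -2.03 to -0.22, unadjusted p = 0.0185, limma adjusted p = 0.711), and the exact permutation p was 0.143. Across the alternatives the adjusted p was 0.172 or more.

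Il1rn came second. It was 20.7, 11.3, 15.0 and 15.7 FPKM in CKD+Fe, a mean of 15.7 ± 3.86 beside 29.0 ± 13.9, and 3 of 4 CKD+Fe mice were below every CKD mouse. The log2 fold change was -0.76 (95% interval -1.35 to -0.18, unadjusted p = 0.0144, adjusted p = 0.653), with an exact permutation p of 0.0571. The adjusted p was 0.111 or more across the alternatives. Without CKD mouse 2 and CKD+Fe mouse 2 the difference was -0.36.

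For the agonist Il1b the difference was smaller. Its CKD+Fe values were 12.6, 13.7, 15.2 and 17.4 FPKM, within the CKD range and much more uniform. The log2 fold change was -0.21 (95% interval -0.78 to 0.35, adjusted p = 0.982) and turned to 0.13 without CKD mouse 2. The ratio of Il1rn to Il1b was 1.64, 0.821, 0.991 and 0.904 in the CKD+Fe mice, and 3 of these lay below the lowest CKD value of 1.32.

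Tnf was 4.54, 1.77, 3.59 and 4.76 FPKM in CKD+Fe, a log2 fold change of -0.22 (95% interval -0.91 to 0.47) that became 0.0965 without CKD mouse 2 and 0.00938 without CKD+Fe mouse 2. Il6 was 0.549, 3.47, 0.691 and 0.688. CKD+Fe mouse 2 had the highest Il6 value of all 12 mice and the other 3 lay within the CKD range, with a log2 fold change of -0.15 (95% interval -1.01 to 0.71). Nos2 was 1.37, 0.541, 0.404 and 0.408, so that 3 of 4 CKD+Fe mice were below every CKD mouse while CKD+Fe mouse 1 was above 3 of them (log2 fold change -0.28, 95% interval -0.73 to 0.16).

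Osmr was 17.1, 16.3, 18.7 and 23.3 FPKM in CKD+Fe, and the log2 fold change was -0.33 (95% interval -0.75 to 0.08). Csf1 was 27.0, 12.6, 18.8 and 18.8 (-0.23, 95% interval -0.67 to 0.21). For Il34, at 101, 90.2, 58.7 and 78.0, the change was -0.38 (95% interval -0.85 to 0.09). All 3 groups of values overlapped those of CKD, and the intervals leave room for a decrease of up to 0.85 (log2) or an increase of up to 0.21.

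No gene of the 6 pathway lists was called with iron in CKD. Among those named here, Socs3 (-0.58, unadjusted p = 0.0214), Il33 (-0.56, unadjusted p = 0.00357), Slc7a2 (-0.55, unadjusted p = 0.0255), Sdc1 (-0.48, unadjusted p = 0.0226) and Il6st (-0.40, unadjusted p = 0.0454) had an unadjusted p under 0.05. All had adjusted p of 0.456 or more. At the unadjusted cutoff, 431 of all 13148 genes tested were higher with iron and 359 lower, so a few such genes in lists of this size are no result by themselves. Csf1r averaged 59.7 ± 10.8 FPKM in CKD+Fe beside 62.7 ± 16.1 in CKD, a log2 fold change of -0.05.

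**Figure D3:**
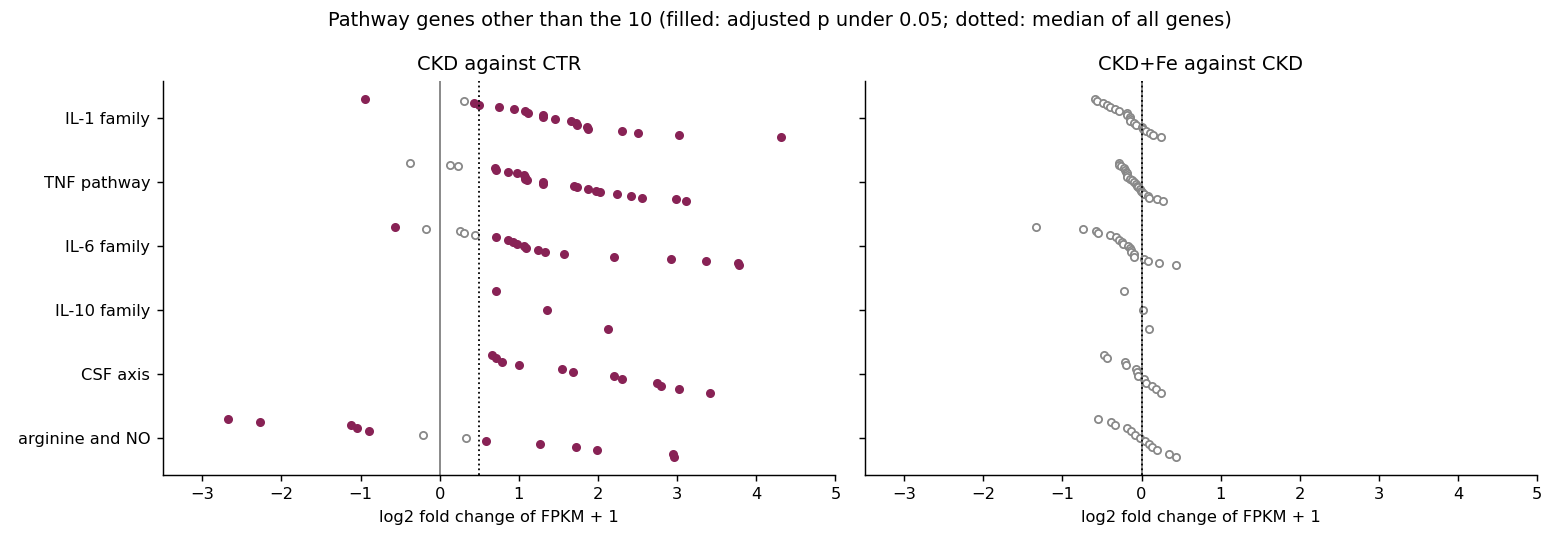
Log2 fold change of every tested gene of the 6 pathway lists, other than the 10 genes themselves, in CKD against CTR (left) and CKD+Fe against CKD (right), with a row per list. Filled points passed an adjusted p of 0.05, and the dotted line is the median of all genes tested (0.50 on the left). In 5 lists most points lie right of the median on the left; no point is filled on the right.

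CKD+Fe mice were next compared with CTR mice, which are the same controls as before. Again 7 genes were called higher, against 54.4% of all genes tested (27.7% after rescaling). As before, Tnf, Il1rn and Arg1 had passed the filter only through the CKD and CKD+Fe mice and so had to differ. The log2 fold changes were 3.81 for Il1rn, 2.90 for Osmr, 2.79 for Il1b, 2.21 for Csf1, 2.19 for Arg1, 1.89 for Tnf and 1.35 for Il34, with adjusted p from 2.03e-07 to 0.000534. Il6 (1.06, adjusted p = 0.0504), Nos2 (0.38, adjusted p = 0.164) and Il10 (0.12, adjusted p = 0.0854) did not pass in the fit without a filter, in which 35.0% of genes were called higher. Every CKD+Fe mouse was above every CTR mouse for 9 of the 10 genes, as for 35.5% of all genes, and the exception was Il10.

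**Figure D4:**
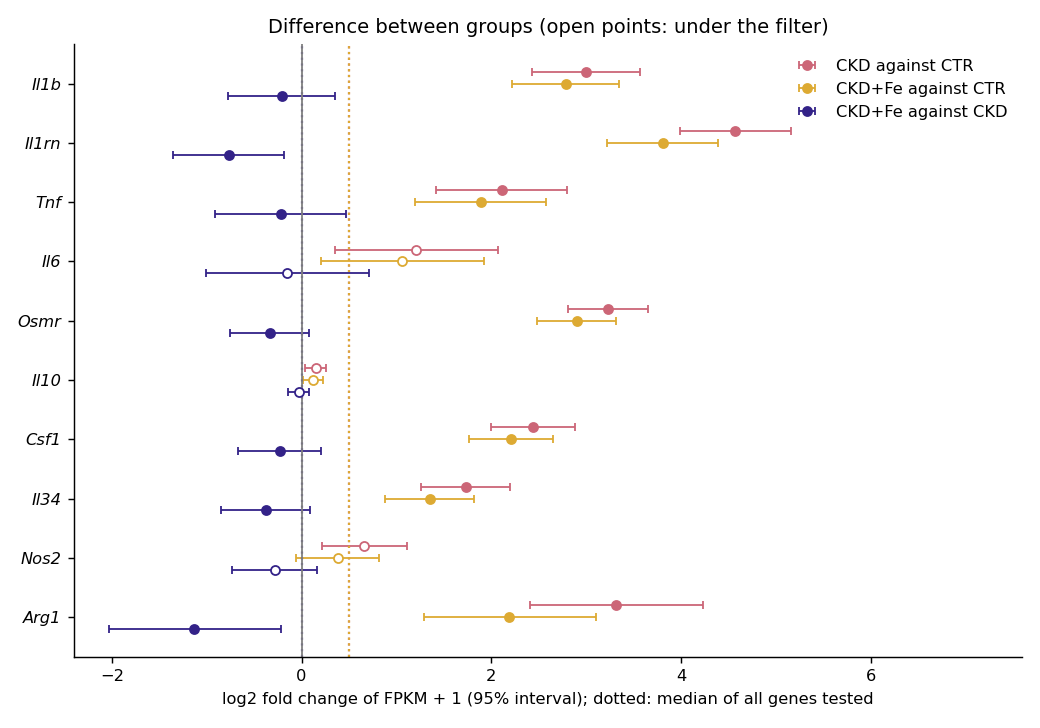
Log2 fold change of FPKM + 1 with its 95% interval for each gene and comparison. Open points mark Il6, Il10 and Nos2, which were under the filter and come from the fit without it; dotted lines mark the median of all genes tested, 0.50 in both comparisons with CTR. The intervals of CKD+Fe against CKD include 0 for all genes except Il1rn and Arg1, whose adjusted p were 0.653 and 0.711.

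Macrophage markers moved with these genes. The mean log2(FPKM + 1) of 10 markers was 3.49 ± 0.37 in CTR, 6.63 ± 0.45 in CKD and 6.58 ± 0.37 in CKD+Fe, a difference of 3.13 between CKD and CTR (exact permutation p = 0.0286) and of -0.04 between CKD+Fe and CKD (exact p = 0.886). Of the 10 markers, 9 were called higher in CKD, and their summed level was 124 to 256 FPKM in CTR, 1811 to 3784 in CKD and 1697 to 3791 in CKD+Fe. Neutrophil markers summed to 1.35 to 5.79, 54.7 to 218 and 47.5 to 131 FPKM, with 4 of 9 (Mpo, Elane, Camp and Ngp) at 0 in all CTR mice and all 4 tested markers called higher in CKD. In CTR mouse 4 all 9 together reached 1.35 FPKM. Most of the tested markers therefore passed the filter only with CKD and CKD+Fe mice, so their calls were partly fixed. CKD mouse 2 had the highest macrophage and neutrophil sums of the CKD mice (3784 and 218 FPKM), as it had the highest Il1b, Il1rn, Tnf and Il6. This did not hold in CKD+Fe, where mouse 1 had the highest sums (3791 and 131 FPKM). That mouse had the highest value of its group for 4 of the 10 genes and the lowest for 3, namely Il1b, Il6 and Arg1. Fibroblast markers summed to 69.0 to 96.6, 385 to 790 and 265 to 468 FPKM (7 of 7 higher in CKD), and T cell markers to 2.92 to 8.08, 5.29 to 25.5 and 16.0 to 28.5 (5 of 6). After rescaling, 9 macrophage, 4 neutrophil, 6 fibroblast and 2 T cell markers were called higher in CKD. Of all genes tested, 54.6% were called higher in CKD, and 28.8% after rescaling. The part of these cell types in the differences was not tested.

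Each gene was set against the macrophage markers by subtracting their mean from its log2(FPKM + 1) in the same mouse. Il34 was above the marker mean in CTR, by 1.42, 1.74, 1.35 and 1.50, and near it in CKD, at -0.11, -0.04, 0.04 and 0.51. CKD and CTR thus differed by -1.40 (exact permutation test, p = 0.0286), and Il34 lay lower against the markers in every CKD mouse than in any CTR mouse. The marker mean itself rose by 3.13, so any gene that rose by less went down on this scale. Of the 13148 genes tested, 153 had a larger log2 fold change than Il1b (3.00), so most genes went down like Il34. How many genes did so without overlap was not counted. Il1b (difference -0.13, exact p = 0.714) and Osmr (0.10, exact p = 0.80) overlapped between CTR and CKD on this scale, as did Csf1 (-0.69, exact p = 0.0857). After Benjamini-Hochberg adjustment over the 21 tests of this kind (7 genes in 3 comparisons), none passed, with a smallest adjusted p of 0.10 from the permutation tests.

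The same quantity depends on the pseudocount, most of all for Il1rn, Tnf and Arg1, which were under 1 FPKM in CTR. With a pseudocount of 0.1, the difference between CKD and CTR was 0.33 for Il1b (exact p = 0.343) and 0.46 for Osmr (exact p = 0.229). With a pseudocount of 1 this difference was 1.44 for Il1rn (exact p = 0.0286), -1.02 for Tnf (exact p = 0.0571) and 0.19 for Arg1 (exact p = 0.743). With 0.1 Tnf turned to 0.63 and Arg1 became 2.65. Between CKD+Fe and CKD, where all 7 genes were above 1 FPKM, the difference was -0.72 for Il1rn (exact p = 0.0571), -1.08 for Arg1 (exact p = 0.20) and between -0.34 and -0.17 for the other 5. Il1rn in CKD was -2.20, -1.57, -2.38 and -1.19 on this scale and in CKD+Fe -2.64, -2.67, -2.64 and -2.27, so the groups overlapped by a single pair of mice.

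**Figure D5:**
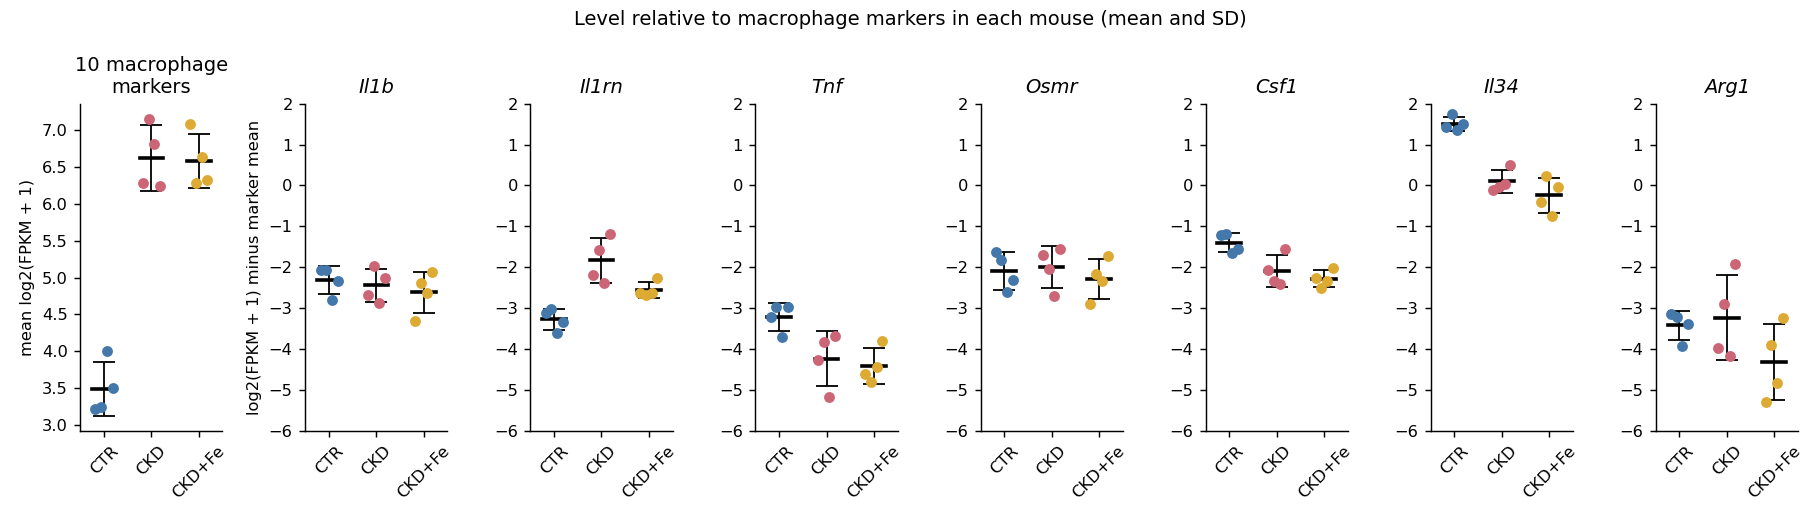
Mean log2(FPKM + 1) of 10 macrophage markers (left panel), and the log2(FPKM + 1) of each of the 7 tested genes minus that mean in the same mouse, with a point per mouse, the mean and the SD (4 mice per group). Il34 minus the marker mean is 1.35 to 1.74 in CTR and -0.11 to 0.51 in CKD, although Il34 itself is higher in CKD. On the same scale Il1b and Osmr overlap between CTR and CKD.

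The genes whose pattern over the 12 mice was most like each of the 7 were listed by the root mean square difference of log2(FPKM + 1) minus the CTR mean, over 13132 genes. For Il1b these were Tlr2, a sensor of bacterial lipoproteins (0.25), Tmem173, which encodes the DNA-sensing adaptor STING (0.25), and Clec4a2, a lectin of myeloid cells (0.28). Il1rn was nearest to Il1f6 (0.21), the gene of interleukin-36 alpha on the same chromosome, then to Krt20, a keratin (0.31), and the chemokine Ccl6 (0.31). For Tnf they were Sirpb1c (0.20), Alpk1 (0.25) and Mab21l3 (0.28), and for Osmr Lox, which cross-links collagen (0.26), the scavenger receptor Msr1 (0.26) and Dpysl3 (0.27).

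Csf1 had the closest neighbors, Syk, a kinase of immune receptors (0.14), the metalloproteinase Mmp19 (0.17) and the cytokine receptor Csf2rb2 (0.18). Il34 was nearest to the transcriptional repressor Tgif1 (0.16), Mfi2 (0.16) and the galectin Lgals9 (0.19). Arg1 had none nearer than 0.47 (Sftpd, a surfactant protein), followed by the chemokine Ccl3 (0.48) and Cd300lf (0.49). These patterns are dominated by the difference between CTR and the other mice, which many genes share.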

How the data were processed

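RNA was extracted from whole kidney of 12 mice, and the authors prepared stranded mRNA libraries and sequenced single-end reads. Per the submitters' processing notes, bcl2fastq 2.19, STAR 2.5.2, Cufflinks 2.1.1 and the GRCm38 build were used; the annotation is not given in the sources used here. The authors deposited FPKM values, 1 per gene and mouse, which are scaled to each mouse's total, so a change in total RNA could not be measured. Failed estimates (30 values in 17 genes, none among the 10) were treated as missing. Start positions, counted from 0 in the table, were raised by 1.

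The fit used limma 3.58.1 (R 4.3.3, with a variance trend and no covariate) on log2(FPKM + 1) of all 12 mice together. It covered 13148 genes that reached 1 FPKM in 4 or more mice. Tests were two-sided, with Benjamini-Hochberg adjustment over these genes and a cutoff of 0.05. Il6, Il10 and Nos2, which did not pass this filter, were read from a fit without it. Single values were compared by an exact permutation test over the 70 arrangements of 4 mice against 4. P values set a difference between groups against the variation between mice. The depth behind a value was estimated only roughly, from single-transcript genes and an assumed fragment length of 200. Antisense genes overlap Il1b by 25 exon bases and Il34 by 22 and 75; whether strand was used in quantification is not given in the sources used here. On simulated data for CKD against CTR (13132 genes), 98 of 101 changes of 4-fold and 72 of 99 of 2-fold were recovered, with 7 false calls. The changes were placed in 200 genes whose CTR levels were above those of Il1b, Osmr, Tnf, Il1rn and Arg1. No shift shared by most genes was simulated, so these rates need not hold for those low genes or for the counts above.

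The 10 genes and the 6 pathway and 17 marker lists were chosen with earlier results of these data known. The genes named were the 10, a set of receptors and partners, the 3 genes of each pathway list with the largest called change and no overlap between CTR and CKD, and the 3 genes most like each tested gene. A gene that this rule picks is not reported here. Genes named besides these, as exceptions to a count, were chosen after their values were seen. Mice are numbered 1 to 4 in each group by order of deposit only, and the labels pair no mice. The labels name no batch. Alternatives are given in the closing section. Promoters came from RefSeq (GRCm38.p6).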

Additional observations from a re-analysis of the deposited data

Results flagged for a closer look

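In 5 of the 30 groups of 4 mice looked at (10 genes in 3 groups), a mouse stood apart from the other 3 by more than Dixon's limit for 4 values. That limit is set to be passed by about 1 in 20 groups of separate, normally distributed values. The 30 groups share the same 12 mice and were compared as FPKM, so 5 of 30 cannot be read as an excess. Il1b in CKD mouse 2 was 35.8 FPKM, against 11.0 to 14.6 in the other CKD mice. Il6 in CKD+Fe mouse 2 was 3.47 FPKM, against 0.549 to 0.691, and Nos2 in CKD+Fe mouse 1 was 1.37, against 0.404 to 0.541. The other 2 cases rest on about 2 reads or fewer: Il6 in CTR mouse 3 was 0.0456 FPKM and Il10 in CTR mouse 1 was 0.0339, and the other 3 CTR mice were at 0 for each. With the other 3 at 0, any value above 0 passes the limit, so these 2 cases were fixed in advance.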

How the results depend on the processing

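The alternatives were a pseudocount of 0.1, other filters, median-of-ratios and quantile scaling, array weights, no variance trend, only the 2 groups compared, an adjusted p of 0.5, each mouse left out in turn, and, chosen after seeing the data, rescaling without a filter and 2 sets of mice left out together. Of the 10 genes, 7 were called in CKD against CTR except with no filter (10), with no filter after rescaling (8) and with a filter at a mean of 5 FPKM, which Tnf did not reach (6). The same 5 FPKM filter gave 6 in CKD+Fe against CTR, where all other alternatives gave 7, and 0 were called in CKD+Fe against CKD under every alternative. Over all genes, quantile scaling called 3060 genes higher and 3363 lower in CKD against CTR, and array weights called 79 higher and 56 lower in CKD+Fe against CKD (51 and 33 without CTR mouse 3, CKD mouse 3 and CKD+Fe mouse 1; 9 and 4 without CKD+Fe mouse 1 alone), where the fit as reported called 1 higher and 0 lower. No paired analysis was possible because the labels give no number that groups share, and the mouse numbers used here are only the order of deposit. In CKD against CTR, 133 of 135 fold changes kept their direction and side of the threshold, and the exceptions were Nos2 and Il10 after rescaling, given above. In CKD+Fe against CKD, 6 of 135 turned positive: without CKD mouse 2, Il1b was 0.13 and Tnf 0.0965, without CKD+Fe mouse 2 Tnf was 0.00938, and without both mice Il1b was 0.16, Tnf 0.33 and Csf1 0.0459. Leaving out 1 mouse at a time, Il1b ran from -0.41 to 0.13, Tnf from -0.47 to 0.0965, Csf1 from -0.40 (without CKD+Fe mouse 1) to -0.0528 (without CKD+Fe mouse 2), Osmr from -0.50 (CKD mouse 3) to -0.17 (CKD mouse 2), Il34 from -0.57 (CKD mouse 1) to -0.23 (CKD+Fe mouse 3), Il1rn from -1.0 (CKD mouse 1) to -0.50 (CKD mouse 2) and Arg1 from -1.49 (CKD mouse 1) to -0.82 (CKD mouse 4).

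Relative to macrophage markers, 15 of 231 differences changed sign. For CKD against CTR, Il1b was 0.0247 with the marker median and 0.33 with a pseudocount of 0.1, and Tnf was 0.63 with the latter. For CKD+Fe against CTR with a pseudocount of 0.1, Il1b was 0.16, Tnf 0.41, Osmr 0.16 and Arg1 1.41. With 1 mouse left out, CKD against CTR ran from -0.30 to 0.00642 for Il1b, from -0.078 to 0.33 for Osmr and from -0.25 to 0.50 for Arg1. CKD+Fe against CKD ran from -0.33 to 0.0629 for Il1b and from -0.49 to 0.0045 for Tnf, and CKD+Fe against CTR from -0.38 to 0.0127 for Osmr. The cause of these changes was not tested. Depth limits Il10 in every group, and Il6 and Arg1 in CTR, to a few reads.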
